A study of Homo sapiens with 6 samples.

Results

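Retinoic acid signals through the genes that make it, break it down, carry it and bind it, and 9 such genes were followed through the differentiation of human embryonic stem cells into smooth muscle cells. The synthesis enzymes were ALDH1A1, ALDH1A2 and ALDH1A3, the breakdown enzymes CYP26A1 and CYP26B1, the carrier CRABP2 and the nuclear receptors RARA, RARB and RARG. Genes were taken by name, and each was read from the probe set that carried its symbol alone, with the highest mean over the 6 arrays where there were several. Of the 9 genes, 8 were measured in this way among 18417 genes in all. RARA lay on a probe set shared with another gene symbol and was not analysed here.

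All samples came from WA09, an established line of human embryonic stem cells grown in StemPro defined medium, with total RNA on 1 Affymetrix array per sample. The groups were undifferentiated cells (hESC), ISL1-positive nascent mesoderm (INM) after 4 days, and smooth muscle cells (SMC) after 21 days, with 2 arrays each. The medium of INM and SMC held 25 ng/ml of Wnt3a with 50 ng/ml of BMP4, and the labels do not say whether any retinoid was present. The labels do not say whether replicates were separate cultures, so every p-value here reflects the spread of these samples alone, and that spread may be technical. All cells are of 1 line, and in bulk RNA fewer cells of a type and less RNA per cell cannot be told apart.

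In the textbook pathway, retinol enters the cell through STRA6, is oxidised to retinal by RDH10, and retinal is oxidised to retinoic acid by the ALDH1A enzymes. CRABP2 hands retinoic acid to the nuclear receptors, which pair with RXR partners on DNA, and the CYP26 enzymes degrade it. In vertebrate embryos ALDH1A2 is the main source of retinoic acid in the trunk mesoderm, and the signal shapes the heart field and the epicardium, from which coronary smooth muscle arises. RARB and CYP26A1 are the standard direct targets, read through DNA elements called DR5, in which a receptor-binding hexamer is repeated in the same direction after a spacer.

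The promoters of these targets are shown because RARB and CYP26A1 moved in opposite directions in SMC versus hESC, and a DR5 match lies just before a start site of each. The RefSeq promoter windows on build GRCh38.p14 run from 250 bases before to 50 bases after a start site. The hexamers of the match are in capitals.
RARB, chr3:25428013-25428312, plus strand: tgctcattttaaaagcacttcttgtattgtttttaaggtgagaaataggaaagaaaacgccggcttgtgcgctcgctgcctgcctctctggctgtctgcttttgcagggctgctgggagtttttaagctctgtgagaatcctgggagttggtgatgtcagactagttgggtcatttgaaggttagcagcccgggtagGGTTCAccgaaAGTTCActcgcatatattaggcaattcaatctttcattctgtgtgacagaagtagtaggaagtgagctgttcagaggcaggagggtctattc
CYP26A1, chr10:93073643-93073942, plus strand: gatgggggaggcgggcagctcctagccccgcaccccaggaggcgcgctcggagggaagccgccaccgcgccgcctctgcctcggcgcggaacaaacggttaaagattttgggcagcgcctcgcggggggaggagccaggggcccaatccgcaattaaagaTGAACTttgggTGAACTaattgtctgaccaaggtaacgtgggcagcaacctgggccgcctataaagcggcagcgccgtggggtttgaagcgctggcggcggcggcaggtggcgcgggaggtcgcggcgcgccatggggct

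The DR5 search accepted the consensus hexamer AGGTCA, its common variant with the letters AGTTCA, and the forms of both that begin with G, which read GGGTCA in one case and otherwise GGTTCA. The spacer had 5 bases, both strands were read, and overlap with other motifs was not searched. Read along the strand that holds it, each match is written here with the hexamers in capitals.
RARB, chr3:25428210-25428226, plus strand: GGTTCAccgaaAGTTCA
CYP26A1, chr10:93073803-93073819, minus strand: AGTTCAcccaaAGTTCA
The RARB match begins 53 bases before the start site and runs with the gene, and the CYP26A1 match begins 90 bases before the start site and lies on the opposite strand. The sequences are identical at 15 of 17 bases, and the hexamer that ends each is the same. Of 35116 promoter windows of that length, 31 held a DR5 match, or 0.0883%. Among the 16 windows of the 9 genes only these 2 did. Both genes were named above as known DR5 targets, so their matches were to be found and that count is no test. None of the 16 held the same hexamers with a spacer of 2 bases (DR2), which 0.0399% of all windows held. RefSeq gives RARB 4 windows and CYP26A1 2, and the arrays do not tell which start site was used.

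The receptor RARB and the carrier CRABP2 showed the clearest rises of the group, and both were already high at day 4. RARB (probe set 8078286, chromosome 3, positions 24829321 to 25597932 on GRCh38.p14, as for all gene positions here) had log2 signals of 4.58 and 4.80 in hESC, 7.67 and 7.93 in INM, with 6.97 and 6.82 in SMC. Every INM array lay above every SMC array, and both stages lay above hESC without overlap. RARB rose in INM versus hESC, at least 6.77-fold (adjusted p = 6.47e-05). Here and throughout, p-values are those of limma's moderated test, adjusted over all genes, and a gene is called, or said to rise or fall, at an adjusted p under 0.05. RARB fell 1.88-fold in SMC versus INM (-0.91, SE 0.15, adjusted p = 0.00753) and rose at least 3.60-fold in SMC versus hESC (adjusted p = 1.07e-04). The folds against hESC are lower bounds, because both hESC arrays lay under 5.04, which was the smallest of the 6 array medians over probe sets with no gene name, and the gene is not shown to be above background there. Such bounds, here and for other genes under that mark, set each array of the low stage to the higher of 5.04 and its own value, and the mark was chosen with the data known. The SMC versus INM call ended without SMC replicate 1 (-0.99, adjusted p = 0.0527) or SMC replicate 2 (-0.84, adjusted p = 0.0801).

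CRABP2, which delivers retinoic acid to the nucleus (probe set 7921099, chromosome 1, positions 156699606 to 156705784), had log2 signals of 8.03 and 7.95 in hESC, 10.34 and 10.03 in INM, with 10.20 and 10.54 in SMC. The INM and SMC arrays overlapped, and all 4 lay above both hESC arrays. The signal was 4.59-fold higher in INM than in hESC (log2 change 2.20, SE 0.17, adjusted p = 2.80e-04). It was 5.22-fold higher in SMC than in hESC (2.38, SE 0.17, adjusted p = 1.27e-04). SMC and INM did not differ by the test, at 0.18 with a 95% interval of -0.21 to 0.58 (adjusted p = 0.485).

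RARG, a receptor best known from skin and cartilage (probe set 7963631, chromosome 12, positions 53210569 to 53232209), had log2 signals of 7.94 and 7.92 in hESC, 7.88 and 7.83 in INM, with 8.28 and 8.59 in SMC. Both SMC arrays were the highest of the 6, and the hESC and INM values lay within 0.11 of each other. The change in INM versus hESC was -0.07 (95% interval -0.40 to 0.25, adjusted p = 0.71). RARG rose 1.49-fold in SMC versus INM (0.58, SE 0.14, adjusted p = 0.0289) and 1.42-fold in SMC versus hESC (0.50, SE 0.14, adjusted p = 0.0279). SMC replicate 2 weighed on both: without it the changes were 0.42 (adjusted p = 0.181) and 0.35 (adjusted p = 0.171). The SMC versus INM call also ended without SMC replicate 1 (adjusted p = 0.0546) or either hESC replicate (adjusted p = 0.0688), and the SMC versus hESC call without hESC replicate 1 (adjusted p = 0.114) or hESC replicate 2 (adjusted p = 0.121). Array weights ended the SMC versus INM call too (adjusted p = 0.0614).

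**Figure D1:**
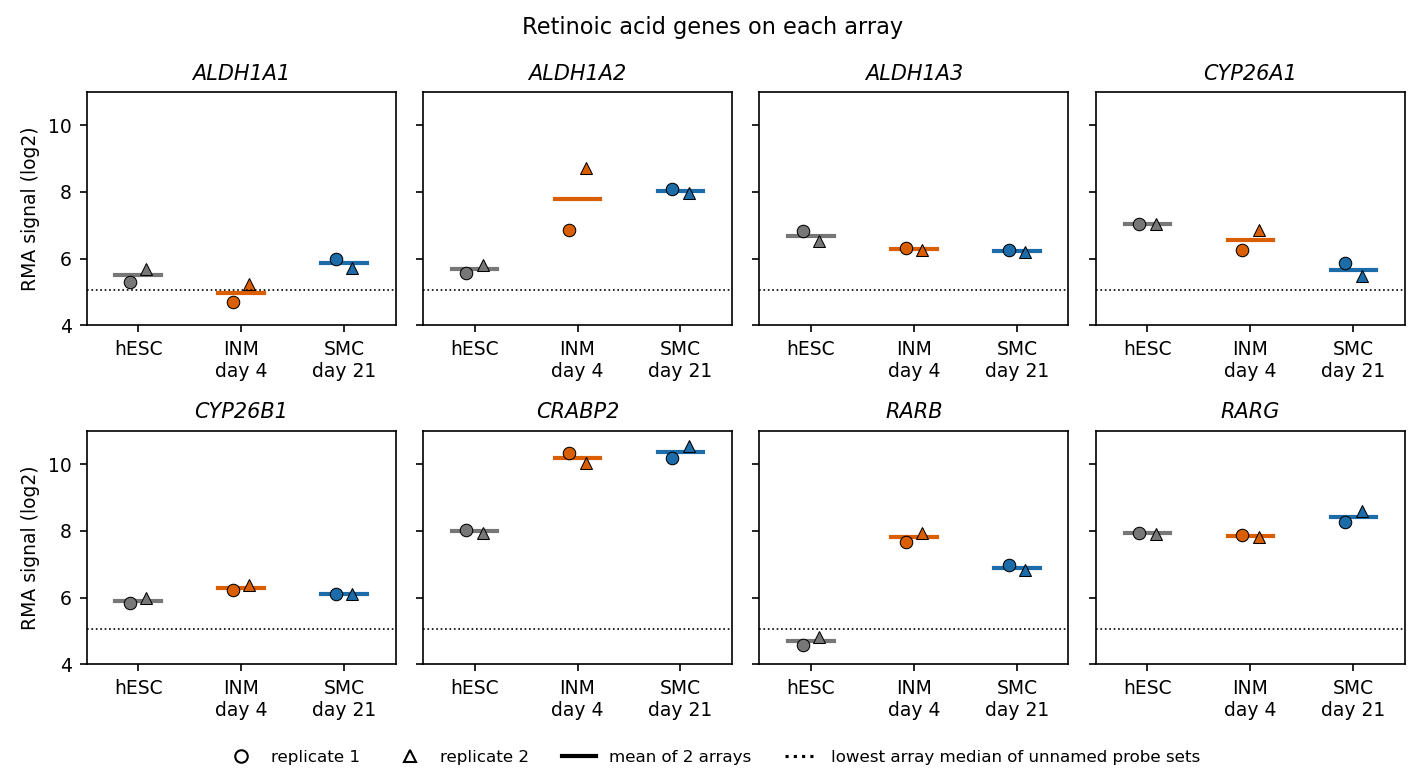
Log2 RMA signal (y axis) of the 8 measured genes on each of the 6 arrays by stage (x axis), with circles for replicate 1, triangles for replicate 2, bars for the mean of 2 arrays, and a dotted line at 5.04, the mark under which only bounds are given. RARB and CRABP2 stand apart from hESC in both derivatives, CYP26A1 is lowest in SMC, and the INM arrays of ALDH1A2 lie at 6.86 and 8.72.

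ALDH1A2 was the synthesis enzyme that rose against hESC, and the INM arrays differed more on it than on any other of the 8 measured genes. ALDH1A2 (probe set 7989199, chromosome 15, positions 57953429 to 58065711) had log2 signals of 5.57 and 5.82 in hESC, 6.86 and 8.72 in INM, with 8.09 and 7.97 in SMC. Both derivatives lay above hESC without overlap, while the SMC arrays lay between the INM arrays. The INM difference of -1.86, replicate 1 minus replicate 2, was in size above that of 99.2% of genes, whereas the SMC pair differed by 0.12. ALDH1A2 rose 5.05-fold in SMC versus hESC (2.34, SE 0.53, adjusted p = 0.0143) and 4.30-fold in INM versus hESC (2.10, SE 0.53, adjusted p = 0.0241). Its change in SMC versus INM was 0.23 with an SE of 0.53 (adjusted p = 0.802).

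Each INM array gave ALDH1A2 a different course. Without INM replicate 1 the gene was called lower in SMC versus INM, at -0.70 (adjusted p = 0.00923), and without INM replicate 2 it was called higher, at 1.16 (adjusted p = 0.00109). In INM versus hESC the change was 3.03 without INM replicate 1 and 1.17 without INM replicate 2, both called. That call ended without hESC replicate 1 (adjusted p = 0.136), hESC replicate 2 (adjusted p = 0.0965) or either SMC replicate (adjusted p = 0.0573), and the SMC versus hESC call without any 1 of the hESC and SMC arrays (adjusted p between 0.070 and 0.0943), with changes from 2.21 to 2.46. The wide INM pair enters the shared spread of those fits.

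**Figure D2:**
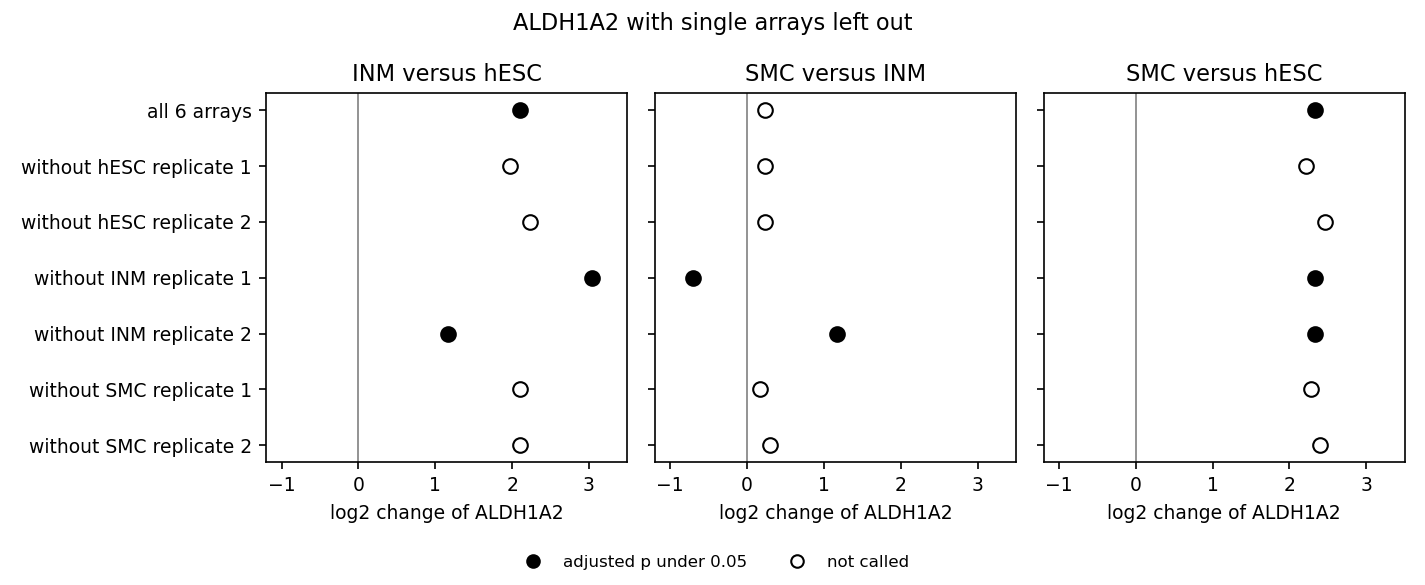
Log2 change of ALDH1A2 (x axis) in the 3 comparisons with all 6 arrays and with each array left out in turn (rows), filled where the adjusted p was under 0.05. The change in SMC versus INM runs from -0.70 without INM replicate 1 to 1.16 without INM replicate 2, and the change in SMC versus hESC stays between 2.21 and 2.46.

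Levels of cell type markers are given beside ALDH1A2. ALDH1A2 is also known as an epicardial gene, and the epicardial and stromal markers (6 of 7 measured) had a mean log2 signal of 6.38 and 6.36 in hESC, 7.54 and 7.83 in INM, with 7.47 and 7.54 in SMC. None of the 6 had a stage mean under 5.04. TCF21, a transcription factor of epicardium and a single gene picked from the 6, had INM arrays at 6.73 and 8.09. That split is wider than that of the list mean and makes up most of it. Averaged over the remaining markers, the INM arrays differed little, so TCF21 does not stand for the list. INM replicate 2 was also the higher on the means of the ISL1 mesoderm markers (9.39 and 9.97) and the endothelium markers (6.78 and 7.43). INM replicate 1 was the higher on the mean of the smooth muscle markers (8.38 and 8.20). The amnion and trophoblast markers (6 of 6 measured) had means of 5.84 and 5.62 in hESC, 9.78 and 9.10 in INM, with 6.50 and 6.58 in SMC, with INM replicate 1 the higher, and 1 of them, HAND1, is also in the ISL1 mesoderm list. The part of these cell types in the change of ALDH1A2 was not tested.

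The other retinal-oxidising enzymes moved less against hESC. ALDH1A1 (probe set 8161755, chromosome 9, positions 72900671 to 72953053) had log2 signals of 5.31 and 5.68 in hESC, 4.70 and 5.24 in INM, with 5.99 and 5.72 in SMC. Both SMC arrays lay above the other 4, and the INM mean lay under 5.04. ALDH1A1 rose at least 1.64-fold in SMC versus INM (adjusted p = 0.0356), a call that ended without either hESC replicate (adjusted p = 0.0635), SMC replicate 1 (adjusted p = 0.203) or SMC replicate 2 (adjusted p = 0.117). It also ended with quantile normalization (adjusted p = 0.0635) and with all probe sets in the fit (adjusted p = 0.0532). ALDH1A1 was not called in INM versus hESC (adjusted p = 0.118, and 0.0125 without INM replicate 2), and its change in SMC versus hESC was 0.36 (95% interval -0.18 to 0.90, adjusted p = 0.253).

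ALDH1A3 (probe set 7986444, chromosome 15, positions 100879831 to 100916626) had log2 signals of 6.82 and 6.51 in hESC, 6.32 and 6.25 in INM, with 6.26 and 6.21 in SMC. The hESC arrays were the highest, and the derivatives lay close together. ALDH1A3 fell 1.35-fold in SMC versus hESC (-0.43, SE 0.14, adjusted p = 0.0467), and its change in INM versus hESC was -0.38 (adjusted p = 0.0739). The SMC versus hESC call ended without hESC replicate 1 (-0.28, adjusted p = 0.23), SMC replicate 1 (adjusted p = 0.159) or SMC replicate 2 (adjusted p = 0.196). It also ended with median centring (-0.30, adjusted p = 0.129), quantile normalization (-0.29, adjusted p = 0.142), the mean of both probe sets (adjusted p = 0.065) and all probe sets (adjusted p = 0.0691). The other ALDH1A3 probe set, 7986446, had a change of -0.46 in SMC versus hESC (SE 0.23, adjusted p = 0.187 over all probe sets).

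The breakdown enzyme CYP26A1 was lower in SMC than at either earlier stage. CYP26A1 (probe set 7929322, chromosome 10, positions 93073475 to 93077885) had log2 signals of 7.03 and 7.04 in hESC, 6.26 and 6.84 in INM, with 5.86 and 5.48 in SMC. The 3 stages did not overlap on these arrays. CYP26A1 fell 2.57-fold in SMC versus hESC (-1.36, SE 0.22, adjusted p = 0.00368), and this call held with any 1 array left out. It fell 1.84-fold in SMC versus INM (-0.88, SE 0.22, adjusted p = 0.0342), and its change in INM versus hESC was -0.48 (95% interval -1.01 to 0.04, adjusted p = 0.138). The SMC versus INM call ended without either hESC replicate (adjusted p = 0.0814), SMC replicate 1 (adjusted p = 0.0853) or SMC replicate 2 (-0.69, adjusted p = 0.207), and with all probe sets in the fit (adjusted p = 0.0513). INM versus hESC was called without INM replicate 2, at -0.78 (adjusted p = 0.00859). RARB was thus higher and CYP26A1 lower in SMC than in hESC, and each has a window with a DR5 sequence printed above.

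CYP26B1, the family's enzyme of limb and gonad in mouse embryos, stayed within a narrow range. The gene (probe set 8052947, chromosome 2, positions 72129238 to 72147862) had log2 signals of 5.82 and 5.99 in hESC, 6.24 and 6.36 in INM, with 6.11 and 6.11 in SMC. CYP26B1 rose 1.32-fold in INM versus hESC (0.40, SE 0.12, adjusted p = 0.0431), and that call ended without either hESC replicate (adjusted p = 0.211 and 0.0839), INM replicate 2 (adjusted p = 0.0769) or either SMC replicate (adjusted p = 0.094). The call also ended with all probe sets (adjusted p = 0.0552) and with array weights (adjusted p = 0.0842). Its change in SMC versus hESC was 0.21 (adjusted p = 0.22) and in SMC versus INM -0.19 (adjusted p = 0.315). CYP26C1, the remaining enzyme of that family, was not called in any comparison, with changes from 0.00 to 0.09. ALDH8A1, another dehydrogenase that acts on retinal, was not called either, with changes from -0.23 to 0.07.

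Counted together, 4 of the 8 measured genes rose and 0 fell in INM versus hESC, where 18.9% of all 18417 genes rose and 33.8% were called in either direction. In SMC versus INM 2 rose and 2 fell, where 9.94% of all genes rose, 11.1% fell and 21.0% were called. In SMC versus hESC 4 rose and 2 fell, where 19.7% rose, 17.6% fell and 37.2% were called. The moderated F test over the 3 stages called 6 of the 8, against 45.5%, and left out ALDH1A3 and CYP26B1. Median changes of the 8 were 0.16, 0.07 and 0.43 in that order of comparisons, beside -0.03, -0.02 and -0.05 over all genes. Centring each array on its median moved the median of all genes by 0.19 in INM versus hESC and by 0.13 in SMC versus hESC. The share of all calls that were higher was then 76.2% in place of 56.1% in INM versus hESC, and 66.5% in place of 52.9% in SMC versus hESC. Relative to those shifts RARB, CRABP2 and ALDH1A2 stayed called higher than hESC in both derivatives and CYP26A1 lower in SMC, while the small INM versus hESC change of RARG turned to 0.11, not called. The comparisons share arrays, so their counts are not independent. Without SMC replicate 1 or SMC replicate 2, 0 of the 8 were called in SMC versus INM, and with either hESC replicate left out 2 were called in INM versus hESC.

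**Figure D3:**
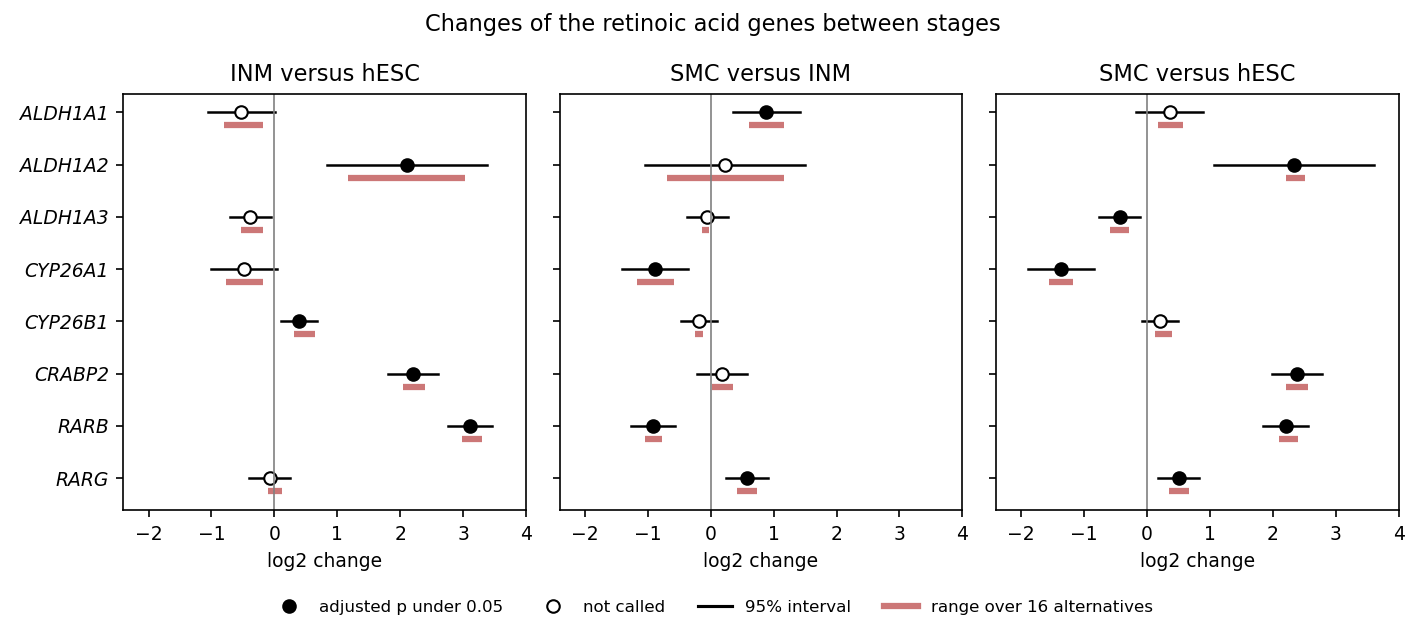
Log2 change (x axis) of each measured gene (rows) in the 3 comparisons, with 95% intervals in black and filled points where the adjusted p was under 0.05. Red bars give the range over 16 alternatives, which include each array left out and only the compared groups. RARB is drawn with its measured hESC signal, which lies under 5.04, and the intervals of RARB and CRABP2 against hESC lie far above 0, CYP26A1 lies below 0 in SMC versus hESC, and ALDH1A2 has the widest intervals.

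Upstream of the synthesis enzymes, STRA6 and RDH10 were higher in SMC than in hESC, and LRAT and DHRS3 were lower. STRA6, the membrane receptor that takes up retinol, had log2 signals of 7.16 and 7.07 in hESC, 8.41 and 8.72 in INM, with 9.97 and 10.16 in SMC. It rose in each step without overlap, by 2.74-fold in INM versus hESC (1.46, SE 0.15, adjusted p = 8.46e-04) and by 2.82-fold in SMC versus INM (SE 0.15 on the log2 scale, adjusted p = 0.0012), which gave 7.74-fold in SMC versus hESC (adjusted p = 4.18e-05). LRAT, which stores retinol as esters, had log2 signals of 8.38 and 8.97 in hESC, 5.48 and 5.76 in INM, with 5.59 and 5.39 in SMC. Both derivatives lay well below hESC, and LRAT fell by 3.06 in INM versus hESC (SE 0.22, adjusted p = 2.16e-04) and fell by 3.18 in SMC versus hESC (SE 0.22, adjusted p = 1.13e-04).

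RDH10, the retinol dehydrogenase of embryonic retinoic acid synthesis, had log2 signals of 7.82 and 7.84 in hESC, 8.01 and 8.84 in INM, with 10.28 and 10.24 in SMC. The SMC arrays stood above all others, 5.39-fold higher than hESC (2.43, SE 0.25, adjusted p = 6.27e-04) and 3.57-fold higher than INM (1.83, SE 0.25, adjusted p = 0.00425). DHRS3, which reduces retinal back to retinol, had log2 signals of 8.39 and 8.35 in hESC, 7.15 and 7.71 in INM, with 6.31 and 6.27 in SMC. It stepped down at each stage, 4.23-fold lower in SMC than in hESC (-2.08, SE 0.19, adjusted p = 3.52e-04) and 1.92-fold lower in INM than in hESC (adjusted p = 0.0104). The SMC versus hESC changes of STRA6, LRAT, RDH10 and DHRS3 were called in all 16 alternatives. DHRS3 fell 2.20-fold in SMC versus INM (adjusted p = 0.00823), a call that ended without SMC replicate 1 (adjusted p = 0.0688) or 2 (adjusted p = 0.0773), and its INM versus hESC call ended without hESC replicate 1 (adjusted p = 0.0734) or 2 (adjusted p = 0.0612).

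**Figure D4:**
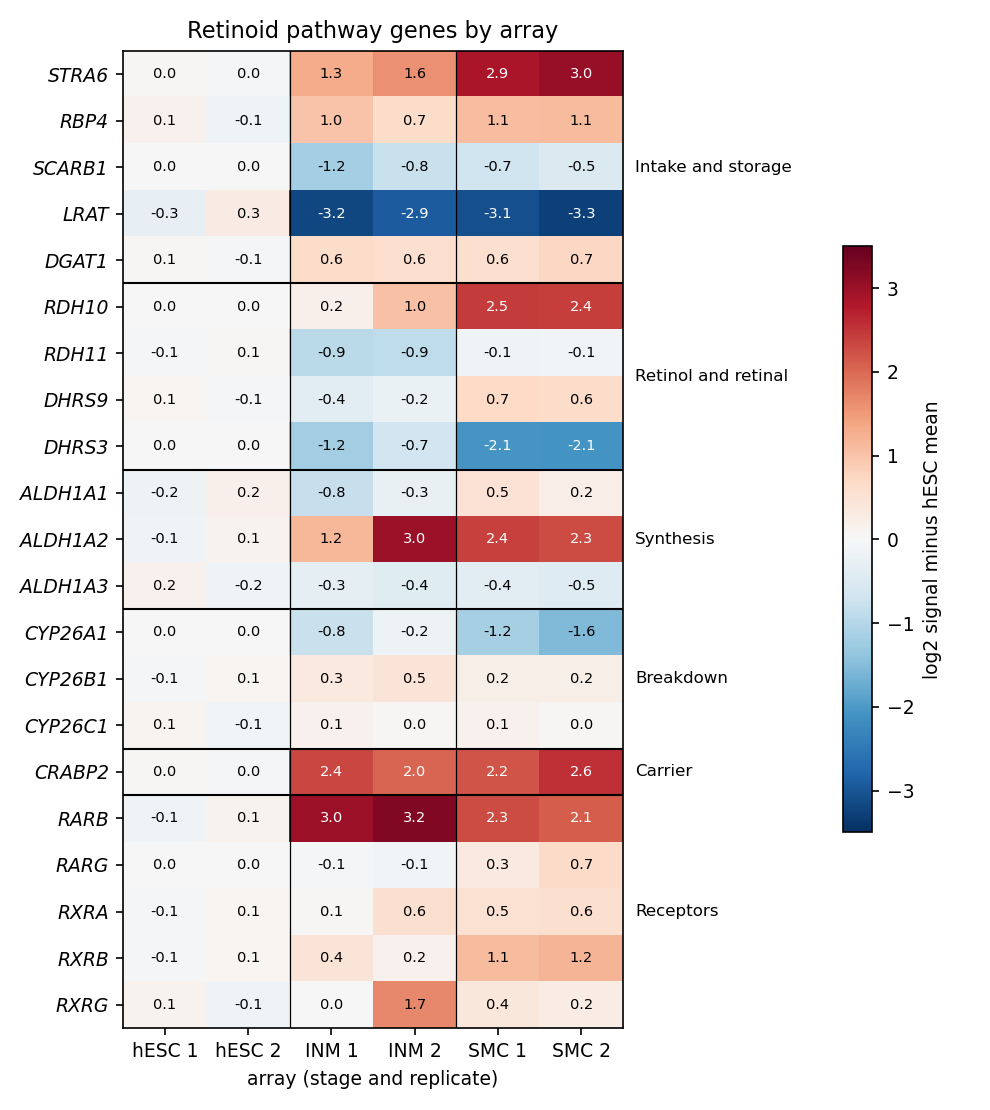
Log2 signal minus the hESC mean (colour, and the number in each cell) of retinoid pathway genes (rows, ordered from intake to receptors) on the 6 arrays (columns). STRA6, RDH10, ALDH1A2, CRABP2 and RARB are above hESC on both SMC arrays, and LRAT, DHRS3 and CYP26A1 are below it.

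Of 14 listed genes of retinol intake and storage, 11 were measured. For this list and those after it, 18.9% of all genes rose and 14.8% fell in INM versus hESC. The shares were 9.94% and 11.1% in SMC versus INM, and 19.7% and 17.6% in SMC versus hESC. In INM versus hESC 3 rose (STRA6, RBP4 and DGAT1), 3 fell (LRAT, SCARB1 and RBP2) and 5 were not called (RBP7, TTR, BCO1, BCO2 and RPE65), with a median change of -0.09. In SMC versus INM 3 rose (STRA6, RPE65 and BCO2) and 0 fell, with a median of 0.27, and in SMC versus hESC 5 rose (STRA6, RPE65, RBP4, DGAT1 and BCO2) and 2 fell (LRAT and SCARB1), with a median of 0.38. RBP4, the carrier of retinol in blood, rose 2.13-fold in SMC versus hESC (1.09, SE 0.16, adjusted p = 0.00241). RPE65, the isomerase of the visual cycle, and BCO2, a carotenoid-cleaving enzyme, lay under 5.04 in hESC and INM, and were at least 1.41-fold and at least 1.44-fold higher in SMC than in hESC (adjusted p = 1.52e-04 and 0.0105). Calls of RBP4 and DGAT1 in INM versus hESC ended without hESC replicate 2 (adjusted p = 0.0661 and 0.063). RBP2 was not called in INM versus hESC without hESC replicate 1 (adjusted p = 0.0661) or 2 (0.162) or either SMC replicate (0.0742), nor with median centring (-0.25, adjusted p = 0.167), quantile normalization (-0.09, adjusted p = 0.622) or array weights (0.0719). Nor was SCARB1 called in SMC versus hESC without any 1 of the hESC and SMC arrays (adjusted p from 0.0761 to 0.167) or with median centring (0.0727). BCO2 was not called without SMC replicate 1 or 2 in SMC versus INM (adjusted p = 0.0917 and 0.0922) or in SMC versus hESC (0.072 and 0.0693), nor there without hESC replicate 2 (0.0752), and DGAT1 not in SMC versus hESC without SMC replicate 2 (0.0518).

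Of 18 listed genes that interconvert retinol and retinal, 15 were measured. In INM versus hESC 0 rose and 2 fell (DHRS3 and RDH11). In SMC versus INM 3 rose (RDH10, DHRS9 and RDH11) and 1 fell (DHRS3), and in SMC versus hESC 2 rose (RDH10 and DHRS9) and 2 fell (DHRS3 and RDH12). The remaining genes RDH13, RDH16, DHRS7, ADH1A, ADH1B, ADH1C, ADH4, ADH5, ADH7 and AKR1B10 were not called in any comparison. List medians were -0.16, 0.13 and -0.02, and 11 to 13 of the 15 were not called in each comparison. RDH11, a retinal reductase, fell 1.88-fold in INM versus hESC (-0.91, SE 0.11, adjusted p = 0.00164) and rose 1.73-fold in SMC versus INM (adjusted p = 0.00444, and 0.056 without SMC replicate 2). DHRS9 had means under 5.04 in hESC and INM and was at least 1.26-fold higher in SMC than in hESC, a rise that was not called without SMC replicate 1 (adjusted p = 0.0518), and RDH12 had a change of -0.64 there that was not called without hESC replicate 1 (0.175), SMC replicate 1 (0.1) or SMC replicate 2 (0.203), nor with median centring (0.0815), quantile normalization (0.0961) or all probe sets (0.0588). RDH5, RDH14 and DHRS4 were not analysed here.

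Of 4 listed genes of the RXR group, RXRB and PPARD rose in SMC versus hESC, and RXRA and RXRG were not called. RXRB had log2 signals of 7.33 and 7.45 in hESC, 7.83 and 7.54 in INM, with 8.48 and 8.59 in SMC, a 2.21-fold rise in SMC versus hESC (1.15, SE 0.14, adjusted p = 0.00114), and its other 2 probe sets changed by 1.09 and 1.06. PPARD, a nuclear receptor that also pairs with RXR, rose 2.10-fold in the same comparison (1.07, SE 0.12, adjusted p = 9.23e-04). Both also rose in SMC versus INM (0.85 and 0.67), calls that ended without SMC replicate 1 (adjusted p = 0.0589 and 0.0689) or SMC replicate 2 (0.0816 and 0.106). PPARD rose by 0.40 in INM versus hESC (adjusted p = 0.0476), a call that ended without any 1 array other than INM replicate 1 (adjusted p from 0.0884 to 0.218), with quantile normalization (0.0638), all probe sets (0.0603) or array weights (0.0935). RXRA was not called, at 0.55 in SMC versus hESC (95% interval 0.12 to 0.98, adjusted p = 0.0537). That change was called in 7 of 16 alternatives, among them median centring (0.68, adjusted p = 0.0305), quantile normalization (adjusted p = 0.0429) and array weights (adjusted p = 0.00706). RXRG was not called in the reported fit, with INM arrays at 4.49 and 6.19. Its INM pair was split in the same direction as that of ALDH1A2.

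Of 22 listed genes known to respond to retinoic acid in other systems, 17 were measured, and no member of the 9 was among them. STRA6, DHRS3 and NRIP1 are counted in other lists here too. In INM versus hESC 7 rose and 3 fell (DHRS3, PLAAT4 and HOXB1), where 18.9% of all genes rose and 14.8% fell. In SMC versus INM 5 rose (NR2F1, STRA6, MEIS2, RARRES1 and ICAM1) and 3 fell (NRIP1, DHRS3 and RARRES2), where 9.94% of all genes rose and 11.1% fell. In SMC versus hESC 8 rose and 3 fell (DHRS3, RARRES2 and PLAAT4), where 19.7% of all genes rose and 17.6% fell. The median changes of the 17 were 0.19, 0.13 and 0.25. Both directions were therefore present in each comparison. The homeobox genes MEIS1, with an hESC mean under 5.04, and MEIS2 rose in SMC versus hESC, at least 13.9-fold (adjusted p = 1.07e-04) and 23.8-fold (4.57, SE 0.26, adjusted p = 6.20e-05). TGM2, a transglutaminase, rose by 5.00 in INM versus hESC (SE 0.45, adjusted p = 5.66e-04), with INM arrays at 12.63 and 11.05, and NR2F1, an orphan receptor, rose by 1.83 in SMC versus INM (SE 0.11, adjusted p = 2.20e-04).

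Several of the smaller calls in that list, rises and falls, depended on single arrays or on the scaling. In INM versus hESC, PLAAT4 was not called without hESC replicate 1 (adjusted p = 0.0606), nor HOXB1 without hESC replicate 1 (0.221), INM replicate 1 (0.0758) or either SMC replicate (0.0946). HOXB1 was also lost with median centring (-0.30, adjusted p = 0.166), quantile normalization (-0.22, adjusted p = 0.29), all probe sets (0.0573) or array weights (0.0913). The rises of HOXB4 and HOXB5 in INM versus hESC ended without hESC replicate 1 (0.119 and 0.154) or 2 (0.0994 and 0.181), and that of HOXB5 also without either SMC replicate (0.0927) or with all probe sets (0.0568). In SMC versus INM, MEIS2 and RARRES1 were not called without SMC replicate 1 (0.0903 and 0.0784), MEIS2 and RARRES2 not without SMC replicate 2 (0.0877 and 0.077), and ICAM1 not without either hESC replicate (0.0882), INM replicate 2 (0.0545) or SMC replicate 2 (0.213), nor in either scaling or with all probe sets or array weights (0.0504 to 0.0906). In SMC versus hESC, RARRES2 and PLAAT4 were not called without hESC replicate 1 (0.0641 and 0.088) or SMC replicate 2 (0.0584 and 0.0759), and PLAAT4 not without SMC replicate 1 (0.082). The rises there of HOXB5, ICAM1 and RARRES1 ended without hESC replicate 2 (0.0541, 0.0647 and 0.203) or SMC replicate 2 (0.0524, 0.0551 and 0.0726), that of ICAM1 also without hESC replicate 1 (0.0509), and that of RARRES1 without SMC replicate 1 (0.23) or with all probe sets (0.0609).

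Aldehyde dehydrogenases listed as kin of the member genes (8 of 8 measured) gave 2 rises and 2 falls in each comparison. Of all genes 33.8%, 21.0% and 37.2% were called in INM versus hESC, SMC versus INM and SMC versus hESC. Across the 16 alternatives ALDH9A1 kept its INM versus hESC call in 6. In SMC versus INM ALDH7A1 kept its call in 8, ALDH2 in 10 and ALDH1L2 in 11. In SMC versus hESC ALDH1L2 and ALDH2 rose, and ALDH7A1 and ALDH1B1 fell. With median centring ALDH7A1 was not called there (-0.50, adjusted p = 0.0545). ALDH2, the mitochondrial enzyme of acetaldehyde, rose 3.06-fold in INM versus hESC (1.61, SE 0.12, adjusted p = 2.72e-04) and 2.17-fold in SMC versus hESC (1.12, SE 0.12, adjusted p = 7.26e-04). Neither fall in SMC versus hESC was called without any 1 of the hESC and SMC arrays (adjusted p from 0.0523 to 0.12).

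Among 16 listed corepressors and coactivators of the receptors, 13 were measured. In INM versus hESC 6 rose (NRIP1, TBL1X, KAT2B, NCOA1, ZNF423 and NCOA2) and 0 fell, where 18.9% of all genes rose and 14.8% fell. Across the 16 alternatives NCOA2 kept that call in 6 and ZNF423 in 15. In SMC versus INM 0 rose and 3 fell (NRIP1, ZNF423 and NCOA2), where 9.94% of all genes rose and 11.1% fell. In SMC versus hESC 3 rose (KAT2B, TBL1X and NCOA1) and 1 fell (ZNF423), where 19.7% of all genes rose and 17.6% fell. NRIP1, a corepressor that binds the receptors with hormone, had log2 signals of 7.64 and 7.57 in hESC, 9.28 and 9.94 in INM, with 7.83 and 7.87 in SMC. It was 4.01-fold higher in INM than in hESC (2.00, SE 0.21, adjusted p = 9.87e-04) and 3.37-fold lower in SMC than in INM (adjusted p = 0.00259), and it kept both calls with any 1 array left out. SMC and hESC differed by 0.25 (95% interval -0.26 to 0.76, adjusted p = 0.4). NCOA2 in SMC versus INM lost its call without SMC replicate 1 (adjusted p = 0.115) or 2 (0.104), NCOA1 in INM versus hESC without hESC replicate 2 (0.0523), and KAT2B in INM versus hESC without either hESC replicate (0.147 and 0.112) or either SMC replicate (0.0654). In SMC versus hESC, KAT2B and NCOA1 were not called without any 1 of the hESC and SMC arrays (adjusted p from 0.0703 to 0.166), nor TBL1X without hESC replicate 1 (0.0696), SMC replicate 1 (0.0643) or SMC replicate 2 (0.0564).

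The genes whose pattern lay nearest to a member over the 6 arrays were found for the 4 members with an F test call and stage means at least 1 apart, as the root mean square difference after each gene was centred on its mean. Nearest to RARB were TBC1D9 at 0.16, ATP2B4 at 0.16 and SCUBE3 at 0.18. Nearest to CRABP2 were SMAD3 at 0.11, the matrix gene FN1 at 0.14 and ISLR at 0.15. Nearest to ALDH1A2 were TRPA1 at 0.15, CPED1 at 0.22 and ST3GAL6 at 0.22, which shared its split of the INM arrays. Both INM arrays entered the distance, so the shared split follows from the selection and is no separate result. TRPA1, the nearest, had 6.57 and 8.18 in INM. Nearest to CYP26A1 were CCDC138 at 0.09, PUS7 at 0.10 and RALGAPA2 at 0.10. Within 0.25 of CYP26A1 lay 308 genes, against 8 for RARB, 4 for ALDH1A2 and 48 for CRABP2. The distance was not scaled to the size of the change. Stage means spanned 1.36 for CYP26A1, 3.11 for RARB, 2.34 for ALDH1A2 and 2.38 for CRABP2, so these counts do not compare how common each course was. These are descriptions of 6 arrays.

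Facts of the whole series that touch these values are few. The stem cell markers (6 of 6 measured) averaged 10.9 in hESC, 8.22 and 8.37 in INM, with 6.44 and 6.35 in SMC, and ISL1 stood at 9.47 and 9.55 in INM. The smooth muscle markers (8 of 8 measured) averaged 7.23 and 7.17 in hESC, with 8.84 and 8.90 in SMC. In SMC versus hESC 6 of the 8 rose (ACTA2, CNN1, TAGLN, SMTN, LMOD1 and MYLK) and 0 fell, where 19.7% of all genes rose. DES was not called, nor was MYH11, a defining marker of mature smooth muscle, at -0.13 (adjusted p = 0.507). The INM arrays stood apart, with 700 genes differing by over 1 on the log2 scale between them, against 11 in SMC and 16 in hESC.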

How the data were processed

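The authors deposited log2 signals of 33297 probe sets on 6 arrays, and the submitters' processing notes name RMA and limma, with no version. RMA settings and a genome build were not found in the labels. Gene names came from the platform annotation (19460 with 1 symbol, 1754 with several, 12083 unnamed) and updated by Entrez identifier, giving 18417 genes with 1 probe set each. The values were not normalized further. All 6 arrays entered 1 linear model with a mean per stage (limma 3.58.1, R 4.3.3; lmFit, then eBayes). Tests were two-sided, with Benjamini-Hochberg adjustment over all genes and calls at an adjusted p under 0.05. An exact test of 2 arrays against 2 cannot go under 0.333. With 2 arrays a stage, the number of arrays limits the precision, and the INM arrays differ more than the other pairs.

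Named genes were the 9 members, listed genes of intake, oxidation and RXR partners, and up to 4 called genes of other lists. Members and lists were chosen with earlier results of these data known. Promoters came from RefSeq (GRCh38.p14). Alternatives were median centring, quantile normalization, a low-signal filter, averaged probe sets, all probe sets, an intensity trend, a robust prior, array weights, only the compared groups, a replicate block and each array left out.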

Additional observations from a re-analysis of the deposited data

How the results depend on the processing

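Across 16 alternatives the changes of the 8 measured genes kept their sign in 382 of 384 instances. The exceptions were RARG in INM versus hESC, not called either way, and ALDH1A2 in SMC versus INM, which ranged from -0.70 to 1.16 with 1 array left out. Most of the kept signs were fixed in advance. The low-signal filter, all probe sets, intensity trend, robust prior, array weights, replicate block and only the compared groups left each log2 change as it was. So did leaving out an array of a stage not compared, so that count is no measure of stability. Over all 234 changes of named genes, 122 instances in 65 changes turned sign, of which 2 were called in either setting: ALDH1A2, and KAT2B in SMC versus INM at -0.45 without INM replicate 1 and 0.56 without INM replicate 2. With 1 array left out, the number of the 8 called ran from 2 to 5 in INM versus hESC, 0 to 5 in SMC versus INM, 3 to 6 in SMC versus hESC and 2 to 7 by the F test, and all genes called ran from 2939 to 7520, 1134 to 6143 and 3803 to 9200. Those fits hold fewer arrays, and a stage left with 1 array is assumed to vary like the others. With only the compared groups, 2 of the 8 were called in INM versus hESC and 1 in SMC versus INM, where 2541 genes were called in all. With all probe sets in the fit, 2 of the 8 were called in SMC versus INM, and 10688 probe sets in INM versus hESC. The cause was not tested. Same-numbered arrays showed little shared deviation (correlations across genes of 0.07, -0.12 and -0.07). With 1 pair of arrays per stage, these values cannot settle whether the replicate numbers pair the arrays. With the replicate block 3, 3 and 5 of the 8 were called in the 3 comparisons, without CYP26B1 in INM versus hESC (adjusted p = 0.0607), CYP26A1 in SMC versus INM (0.0503) and ALDH1A3 in SMC versus hESC (0.0527). No measure of signal over background was used, which limits RARB in hESC and ALDH1A1 in INM.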
